A study of Mus musculus with 9 samples.

Results

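The receptors, ligands and targets of the Notch pathway were followed as 10 genes through 3 cell populations sorted from the fetal mouse testis. The receptors are Notch1, Notch2, Notch3 and Notch4, the ligands Jag1, Jag2, Dll1 and Dll4, and the targets Hes1 and Hey1. They were picked by symbol, and each symbol was matched to its Ensembl identifier through the GENCODE M21 annotation, which gave 10 of the 38560 genes in the deposited count table. Notch signalling works between touching cells: a ligand on the surface of a cell binds a receptor on its neighbour, the receptor is cut by a metalloprotease and then by the gamma-secretase complex, and the freed intracellular part joins the DNA-binding protein RBPJ and the Mastermind coactivators in the nucleus. Hes and Hey genes, which encode transcriptional repressors, are the best known targets of that complex. In the fetal testis the pathway is known for holding interstitial progenitors back from Leydig differentiation, and in blood vessels Dll4 and Notch4 are known endothelial genes.

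The labels call the populations Sertoli, Leydig and Interstitial, and all came from Sf1-eGFP mice, whose green reporter follows the gene for the steroidogenic factor SF1, at 12.5 days post coitum, with no other allele or treatment named. Cells binding an antibody to CD31 were sorted away to take out germ and endothelial cells, while the labels leave the fluorescence gates unstated. Each population has 3 libraries, with the replicate letters A, B and C. A library stands for a pool of about 10 sorting experiments made on different days with 4 to 10 litters each, and per the protocol the pools A and B were also mixed, with 100 ng of total RNA a sample, so that replicate C was taken, by elimination, as the mixture. Tests therefore used replicates A and B (n = 2 per population), values of C are shown beside them, and p-values rest on how much 2 pools differ, since no label ties a pool to single animals. Between 33.12 and 39.24 M reads per library fell in genes. Levels below are CPM, which is reads per M reads in genes, after TMM scaling, and a count of 0 allows up to 0.0764 to 0.0906 CPM (counting error only). A gene was called when edgeR's quasi-likelihood test gave an adjusted p under 0.05 over all 18048 genes tested.

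The labels were checked against cell type markers. Summed over 12 Sertoli markers, the libraries were at 3750 to 3950 CPM in Sertoli, 1080 to 1130 CPM in Leydig and 179 to 211 CPM in Interstitial. Summed over 6 fetal Leydig markers, they were at 257 to 309, 236 to 446 and 41.7 to 65.0 CPM in the same order. By edgeR, 6 of 6 were higher in Leydig than in Interstitial, beside 22.0% of all genes. Between Leydig and Sertoli 0 of 6 differed, beside 37.5% of all genes, with 0 at an unadjusted p under 0.05 and 0 by DESeq2 or limma. The markers of fetal Leydig cells therefore did not separate the libraries labelled Leydig from those labelled Sertoli, and the names are used as the labels give them. Summed over 11 interstitial progenitor markers, the level was 541 to 556 CPM in Sertoli, 1670 to 1870 CPM in Leydig and 1370 to 1460 CPM in Interstitial. In spite of the CD31 step, 17 of 17 endothelial markers had reads, with sums of 76.0 to 81.2, 352 to 392 and 326 to 391 CPM. The sample is bulk RNA, so fewer cells of a type and less RNA per cell cannot be told apart.

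Promoter sequence is shown for 4 genes: Hes5 and Hey2, Notch targets whose windows hold the binding letters of RBPJ, and Dll4 and Notch4, the 2 members with the widest difference from Sertoli. Windows of 250 bases before to 10 after the start were taken from RefSeq (GRCm38.p6), and 8 of the 10 members matched, with 9 windows. Hes1 and Hey1 had no entry. The letters GTGGGAA, or TTCCCAC on the other strand, occur in 1833 of all 32851 windows (5.58%). None of the 9 windows of the members held them, while 3 of 6 windows of other target genes and Nrarp did, in Hes5, Hey2 and Hes7. In Hes5 they start at -226 and -83 and in Hey2 at -207 and -4 from the start, capitals below. The letters AGGAAG, or CTTCCT on the other strand, are a form of the site bound by ETS factors. They share no position with the first motif and occur in 30.6% of all windows. This exact run of letters is in capitals 3 times in Notch4 and is not found in Dll4. Shorter or other forms of the site were not sought in either, and such matches describe the letters of these windows only. The runs are read 5′ to 3′ on the strand of the gene, and that of Notch4 ends where GENCODE places the start of the gene.
Hes5, chr4:154960673-154960932, forward strand: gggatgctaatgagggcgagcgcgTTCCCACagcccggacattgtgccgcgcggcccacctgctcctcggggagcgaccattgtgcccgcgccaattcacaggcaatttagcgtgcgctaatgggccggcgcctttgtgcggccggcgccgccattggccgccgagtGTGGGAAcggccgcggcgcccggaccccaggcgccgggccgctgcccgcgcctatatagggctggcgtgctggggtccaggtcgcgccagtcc
Hey2, chr10:30842774-30843033, reverse strand: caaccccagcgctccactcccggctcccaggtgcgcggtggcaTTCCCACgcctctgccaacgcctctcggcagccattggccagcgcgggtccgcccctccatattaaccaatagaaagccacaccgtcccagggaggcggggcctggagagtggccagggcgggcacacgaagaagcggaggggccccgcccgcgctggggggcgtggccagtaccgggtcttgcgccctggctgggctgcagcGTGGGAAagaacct
Dll4, chr2:119325534-119325793, forward strand: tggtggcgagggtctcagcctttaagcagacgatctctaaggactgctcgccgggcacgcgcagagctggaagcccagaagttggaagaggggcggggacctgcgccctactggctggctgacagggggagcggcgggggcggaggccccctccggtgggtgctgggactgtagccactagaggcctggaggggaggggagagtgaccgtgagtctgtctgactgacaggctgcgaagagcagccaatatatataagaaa
Notch4, chr17:34564045-34564267, forward strand: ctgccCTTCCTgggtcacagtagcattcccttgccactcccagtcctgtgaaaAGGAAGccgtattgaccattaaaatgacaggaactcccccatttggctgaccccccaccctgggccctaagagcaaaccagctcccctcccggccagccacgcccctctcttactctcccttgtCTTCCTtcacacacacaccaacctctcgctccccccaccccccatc

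Notch2 and Notch3 were the receptors with opposite leanings: Notch2 was highest in Sertoli and lowest in Interstitial, and Notch3 was higher in both other populations than in Sertoli. Notch2 (ENSMUSG00000027878, chromosome 3, 98013527 to 98150361, forward strand, GRCm38) encodes a widely expressed receptor. Its level was 452, 491 and 441 CPM in Sertoli replicates A, B and C, 386, 359 and 375 CPM in Leydig, and 276, 270 and 258 CPM in Interstitial. The 3 populations did not overlap, with Leydig between the others. The log2 difference was -0.34 ± 0.07 for Leydig against Sertoli (SE; edgeR adjusted p 0.00409), -0.79 ± 0.07 for Interstitial against Sertoli (edgeR adjusted p 1.58e-05) and 0.45 ± 0.07 for Leydig against Interstitial (edgeR adjusted p 0.000995). The summed Sertoli markers fell in the same order of populations, and their part in this result was not tested.

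Notch3 (ENSMUSG00000038146, chromosome 17, 32120820 to 32166852, reverse strand) is a receptor known from vascular smooth muscle and pericytes. It was at 56.7, 56.1 and 51.0 CPM in Sertoli A, B and C, at 107, 90.2 and 105 CPM in Leydig, and at 96.4, 97.1 and 91.4 CPM in Interstitial. Every Leydig and Interstitial library lay above every Sertoli library, and Leydig and Interstitial overlapped. Notch3 was 1.75-fold higher in Leydig than in Sertoli (log2 difference 0.81 ± 0.08 SE; edgeR adjusted p 9.8e-05) and 1.72-fold higher in Interstitial (0.78 ± 0.08; edgeR adjusted p 5.6e-05), and between Leydig and Interstitial the difference was 0.03 ± 0.08 (edgeR adjusted p 0.822). The summed level of 10 smooth muscle and pericyte markers was 1.45-fold higher in Leydig and 1.17-fold higher in Interstitial than in Sertoli. Of these 10, 7 were called higher and 1 lower in Leydig (16.9% and 20.6% of all genes), with a median log2 difference of 1.31. In Interstitial 6 were called higher and 3 lower (32.7% and 29.1% of all genes), with a median of 1.03. Pdgfrb, the most abundant of the 10, is also among the 11 interstitial progenitor markers. Those summed to 541 to 556 CPM in Sertoli, 1670 to 1870 CPM in Leydig and 1370 to 1460 CPM in Interstitial. The part of either marker list in the Notch3 result was not tested.

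Notch1 (ENSMUSG00000026923, chromosome 2, 26457903 to 26516663, reverse strand), the receptor first linked to leukaemia, had nearly level values. Sertoli A, B and C were at 50.3, 55.3 and 47.1 CPM, Leydig at 58.5, 56.5 and 54.8 CPM, and Interstitial at 50.5, 49.7 and 44.7 CPM. Only Leydig and Interstitial did not overlap, by a gap of a few CPM. Its log2 difference there was 0.20 ± 0.07 (SE; edgeR adjusted p 0.0481). That call ended without any of the 4 libraries compared (edgeR adjusted p 0.17 and 0.0902 without Leydig A and B, 0.144 and 0.219 without Interstitial A and B), and Notch1 was called against Sertoli neither in Leydig (0.12 ± 0.07; edgeR adjusted p 0.217) nor in Interstitial (-0.08 ± 0.07; edgeR adjusted p 0.38). In Leydig against Sertoli it was called with all 9 libraries (0.19, edgeR adjusted p 0.0249) and with scaling by library size alone (0.23, 0.0447).

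Notch4 (ENSMUSG00000015468, chromosome 17, 34564268 to 34588503, forward strand), the endothelial receptor, was low everywhere and lowest in Sertoli. It stood at 2.45, 3.31 and 2.57 CPM in Sertoli A, B and C, 8.56, 7.8 and 8.25 CPM in Leydig, and 9.14, 6.62 and 8.56 CPM in Interstitial. The Sertoli libraries lay below all others, and Leydig lay within the range of Interstitial. Notch4 was 2.84-fold higher in Leydig (log2 difference 1.5 ± 0.21 SE; edgeR adjusted p 0.000577) and 2.74-fold higher in Interstitial (1.45 ± 0.21; edgeR adjusted p 0.00035) than in Sertoli. The endothelial marker sum was 4.73-fold and 4.56-fold higher in the same comparisons. Set against 1000 CPM of endothelial markers, Notch4 was at 30.2 to 43.6 CPM in Sertoli, 19.9 to 24.3 CPM in Leydig and 20.3 to 23.8 CPM in Interstitial. The order of populations thus turned on that scale, whose values depend on which markers are summed. The part of endothelial cells in the Notch4 result was not tested.

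**Figure D1:**
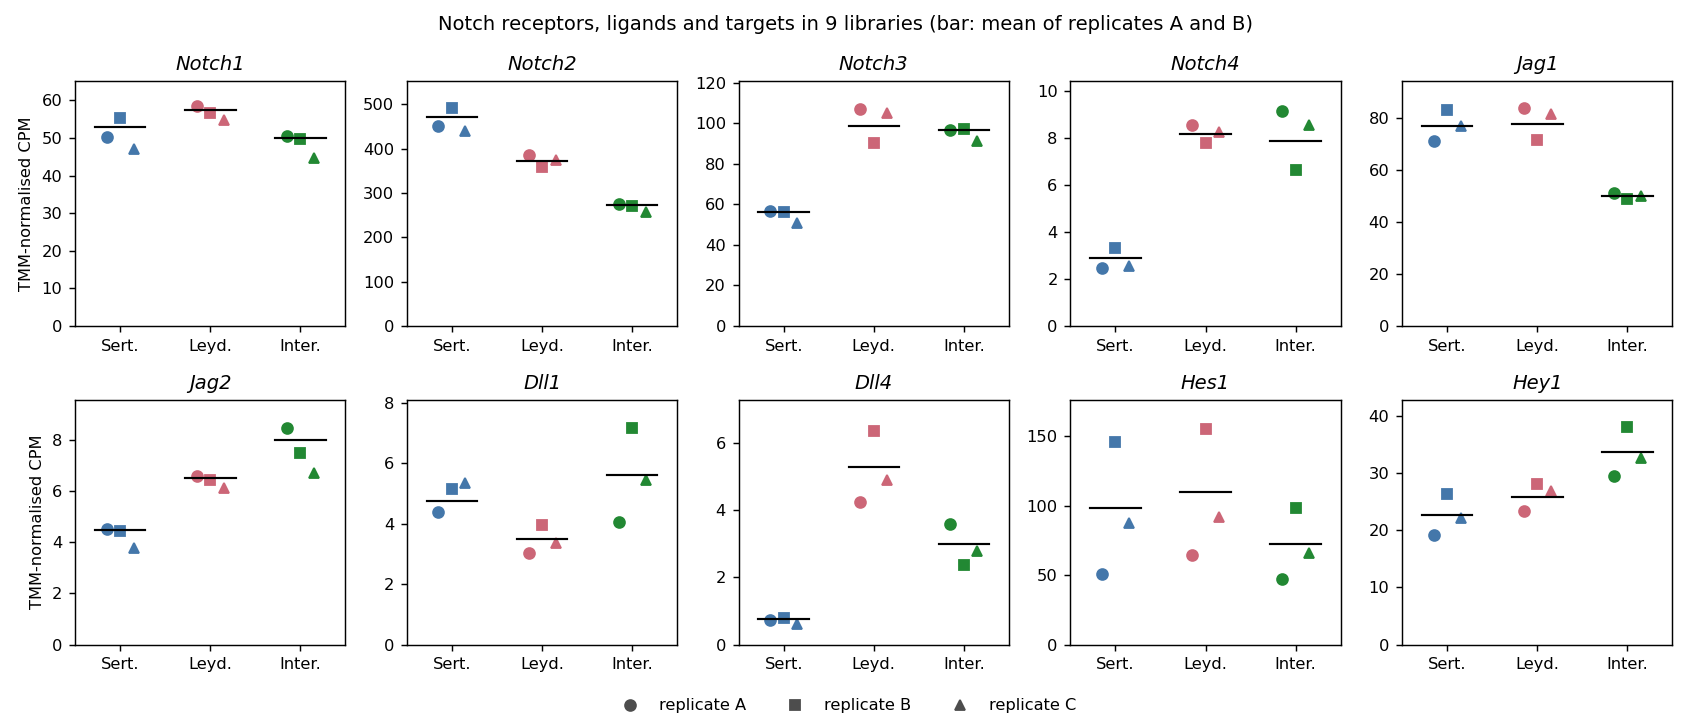
Level of each of the 10 genes in the 9 libraries, in TMM-normalised CPM on a linear axis from 0, with circles for replicate A, squares for B, triangles for C and a bar at the mean of A and B. The 3 populations of Notch2 do not overlap, Dll4 lies under 0.8 CPM in every Sertoli library, and the Hes1 points run from 47.2 to 155 CPM over the 9 libraries.

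Levels of different genes can be compared only per exon length, so the make-up of the receptor RNA was read in RPKM (normalised CPM per kb of exon). Notch2 made up most of it in each population, with 79.8 ± 0.545% in Sertoli, 66.7 ± 0.981% in Leydig and 60.6 ± 0.144% in Interstitial (SD, n = 2). The share of Notch3 was 12.7 ± 0.746%, 23.5 ± 1.29% and 28.6 ± 0.601% in the same order. Interstitial thus had the smallest Notch2 share and the largest Notch3 share, outside the range of the other libraries, replicate C included. Notch1 took 6.77 ± 0.0972%, 7.81 ± 0.311% and 8.42 ± 0.0344%, and Notch4 0.65 ± 0.104%, 1.96 ± 0.00248% and 2.34 ± 0.492%. The 4 receptors summed to 54.8 ± 2.82 RPKM in Sertoli, 51.8 ± 3.35 in Leydig and 41.8 ± 0.654 in Interstitial. Shares within a sum are tied to each other, and no test was made on them.

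**Figure D2:**
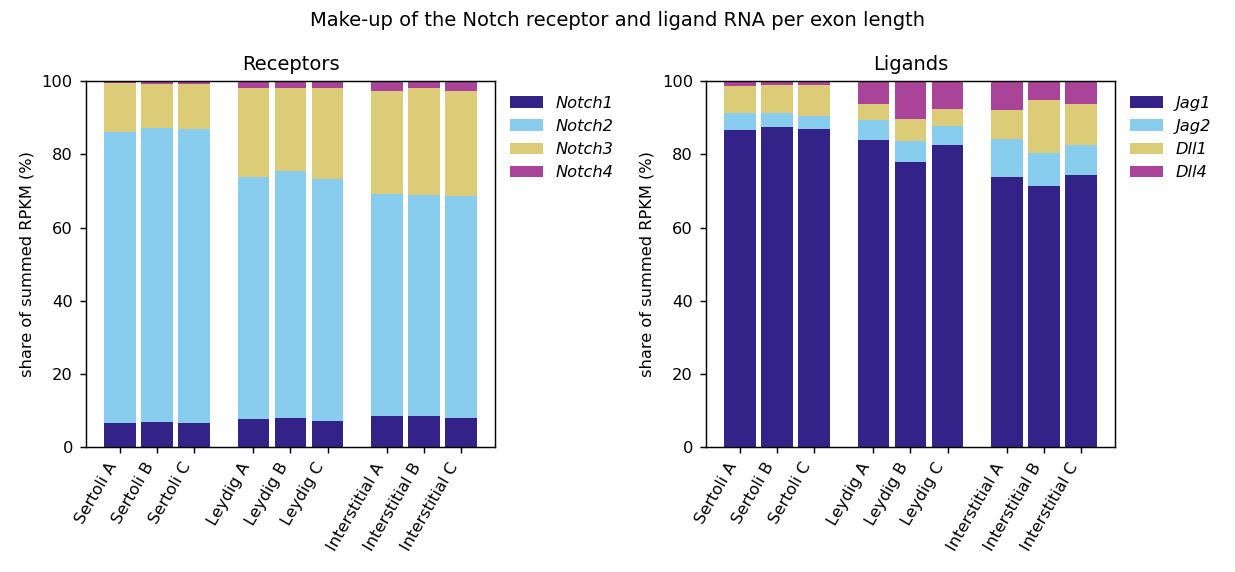
Share of each receptor (left) and each ligand (right) in the summed RPKM of its kind, in percent, with 1 bar per library grouped by population. Notch2 and Jag1 fill most of every bar, Notch3 takes 28.6% in Interstitial against 12.7% in Sertoli, and Dll4 is a thin band in Sertoli (1.29%).

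Jag1 was the main ligand by level, and Dll4 the ligand that differed by the largest factor. Jag1 (ENSMUSG00000027276, chromosome 2, 137081456 to 137116644, reverse strand) was at 71.0, 83.1 and 76.9 CPM in Sertoli A, B and C, 83.9, 71.5 and 81.4 CPM in Leydig, and 51.3, 49.0 and 50.1 CPM in Interstitial. Sertoli and Leydig overlapped and both lay above Interstitial. The log2 difference was 0.63 ± 0.10 for Leydig against Interstitial (SE; edgeR adjusted p 0.00122) and -0.62 ± 0.10 for Interstitial against Sertoli (edgeR adjusted p 0.000668), and 0.01 ± 0.10 for Leydig against Sertoli (edgeR adjusted p 0.936).

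Dll4 (ENSMUSG00000027314, chromosome 2, 119325784 to 119335962, forward strand), the ligand of vessel sprouting, rested on few reads. Sertoli A, B and C had 25, 26 and 22 of them (0.722, 0.783 and 0.608 CPM), Leydig 141, 220 and 181 (4.23, 6.33 and 4.9 CPM), and Interstitial 147, 82 and 113 (3.59, 2.36 and 2.78 CPM). The 3 populations did not overlap, with Leydig highest. Dll4 was 7.0-fold higher in Leydig than in Sertoli (log2 difference 2.81 ± 0.31 SE; edgeR adjusted p 0.000147) and 3.96-fold higher in Interstitial than in Sertoli (1.99 ± 0.32; edgeR adjusted p 0.000659). In the authors' deposited table of Leydig against Sertoli, Dll4 is listed with a log2 fold change of 2.88 and Notch4 with 1.62, and no other member is in that table. Their table of Interstitial against Sertoli lists 2 members and that of Leydig against Interstitial 0. The smallest difference listed for any pathway gene was -1.02 (Aph1a, Interstitial against Sertoli), so members with smaller differences may be absent for that reason alone.

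Dll4 was also higher in Leydig than in Interstitial, with a log2 difference of 0.82 ± 0.26 (SE; edgeR adjusted p 0.0309). That call ended without Leydig B (0.49, edgeR adjusted p 0.193), Interstitial B (0.54, edgeR adjusted p 0.185), Sertoli A (edgeR adjusted p 0.0533) or Sertoli B (edgeR adjusted p 0.0528), the Sertoli libraries entering through the shared spread. Of the 17 endothelial markers, 9 were higher and 2 lower in Leydig than in Interstitial, beside 22.0% and 23.2% of all genes. Their median log2 difference was 0.51 and the ratio of the sums 1.04. Pecam1, which encodes the sorted-away CD31, was lower in Leydig (log2 difference -1.22 ± 0.19), and Cdh5, which encodes the cadherin of vessel walls, was higher (0.54 ± 0.15). Set against 1000 CPM of endothelial markers, Dll4 was at 7.95 to 10.3 CPM in Sertoli, 12.0 to 16.2 CPM in Leydig and 7.23 to 9.18 CPM in Interstitial. The Leydig libraries stayed above the others on that scale. The sum was led by Kdr, Pecam1 and Cdh5 and hardly differed between Leydig and Interstitial, unlike the median marker. The values on that scale therefore depend on which markers are summed, and the part of endothelial cells in the Dll4 result was not tested.

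Jag2 (ENSMUSG00000002799, chromosome 12, 112907819 to 112929776, reverse strand), the other Jagged ligand, was low everywhere and lowest in Sertoli. It was at 4.53, 4.46 and 3.76 CPM in Sertoli A, B and C, 6.61, 6.44 and 6.11 CPM in Leydig, and 8.48, 7.51 and 6.71 CPM in Interstitial. The 3 populations did not overlap, though Leydig A and Interstitial C were close. The log2 difference was 0.83 ± 0.14 for Interstitial against Sertoli (SE; edgeR adjusted p 0.000782) and 0.54 ± 0.14 for Leydig against Sertoli (edgeR adjusted p 0.0155), the latter call ending without Sertoli A (edgeR adjusted p 0.0708) or Sertoli B (edgeR adjusted p 0.0777). Between Leydig and Interstitial it was -0.29 ± 0.13 (edgeR adjusted p 0.106).

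Dll1 (ENSMUSG00000014773, chromosome 17, 15367354 to 15376872, reverse strand), a ligand known from somite formation, had a call that depended on the libraries, the filter and the terms of the fit. It was not called in the fit of the 6 libraries by population alone. Sertoli A, B and C were at 4.39, 5.15 and 5.36 CPM, Leydig at 3.03, 3.97 and 3.35 CPM, and Interstitial at 4.06, 7.17 and 5.46 CPM. Leydig was the lowest population, and its libraries did not overlap the others, but Interstitial A and B lay far apart. The log2 differences were -0.67 ± 0.27 for Leydig against Interstitial (SE; edgeR adjusted p 0.0765), -0.44 ± 0.28 for Leydig against Sertoli (edgeR adjusted p 0.256) and 0.23 ± 0.27 for Interstitial against Sertoli (edgeR adjusted p 0.486). Dll1 was called lower in Leydig than in Interstitial when genes of low counts were kept (-0.68, edgeR adjusted p 0.00501), with all 9 libraries (-0.69, 0.00515), without Leydig B (-0.89, 0.0471) and without Interstitial A (-1.04, 0.0106). It was also called in Leydig against Sertoli with all 9 libraries (-0.48, edgeR adjusted p 0.0455) and in Interstitial against Sertoli without Interstitial A (0.64, 0.045). An opposite-strand gene, A930024N18Rik, covers 20.55% of its exon bases with 3 to 20 reads per library beside 101 to 249 for Dll1. Smaller opposite-strand overlaps touch Notch1 (9.76% of exon bases), Notch3 (6.03%) and Dll4 (5.56%, 1 to 10 reads of Gm14207), and such reads cannot be told apart where counting ignored strand.

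By RPKM, Jag1 made up 87.0 ± 0.505% of the ligand RNA in Sertoli, 80.8 ± 4.32% in Leydig and 72.6 ± 1.84% in Interstitial (SD, n = 2). Dll4 took 1.29 ± 0.0617%, 8.41 ± 2.83% and 6.51 ± 1.86%, Dll1 7.44 ± 0.0572%, 5.08 ± 1.25% and 11.2 ± 4.47%, and Jag2 4.27 ± 0.5%, 5.69 ± 0.237% and 9.68 ± 0.764%. Below Jag1, the largest mean share was that of Dll1 in Sertoli and Interstitial and that of Dll4 in Leydig, within a wide spread for Dll1 and Dll4. In Interstitial, Dll1 and Jag2 were at 8.07 and 10.2% in replicate A but at 14.4 and 9.14% in replicate B. The 4 ligands summed to 15.2 ± 1.6 RPKM in Sertoli, 16.5 ± 0.975 in Leydig and 11.9 ± 0.0768 in Interstitial.

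Counted over the 10 members, 5 were called between Leydig and Sertoli, 4 of them higher in Leydig (Notch3, Notch4, Jag2 and Dll4) and 1 higher in Sertoli (Notch2), where 37.5% of all genes tested were called, 16.9% higher in Leydig and 20.6% higher in Sertoli. Between Leydig and Interstitial, 4 were called (Notch1, Notch2, Jag1 and Dll4), each higher in Leydig, against 45.1% of all genes, 22.0% higher in Leydig and 23.2% higher in Interstitial. On the 6 libraries, with the low-count filter and population as the only term, none was called higher in Interstitial by edgeR, DESeq2 or limma. In that setting 1 was at an unadjusted edgeR p under 0.05 (2 by DESeq2 and 1 by limma). Dll1 and Hey1 were, however, called higher in Interstitial by edgeR with the replicate letter as a block, with no low-count filter and with all 9 libraries. Their log2 differences were -0.89 and -0.54 without Leydig B, and -1.04 and -0.57 without Interstitial A. Between Interstitial and Sertoli, 7 were called, with Notch3, Notch4, Jag2, Dll4 and Hey1 higher in Interstitial and Notch2 and Jag1 higher in Sertoli, against 61.8% of all genes, 32.7% higher in Interstitial and 29.1% higher in Sertoli. With 10 members, these counts lie near the shares of all genes and say nothing particular of the pathway. Over libraries A, B and C, the populations did not overlap for 6, 7 and 7 of the 10 members in the same order, beside 57.8%, 65.5% and 74.6% of all genes. The median log2 difference of the members was 0.17, 0.12 and 0.40, and that of all genes -0.01, 0.01 and 0.04. The 3 comparisons share libraries and are not independent of each other.

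**Figure D3:**
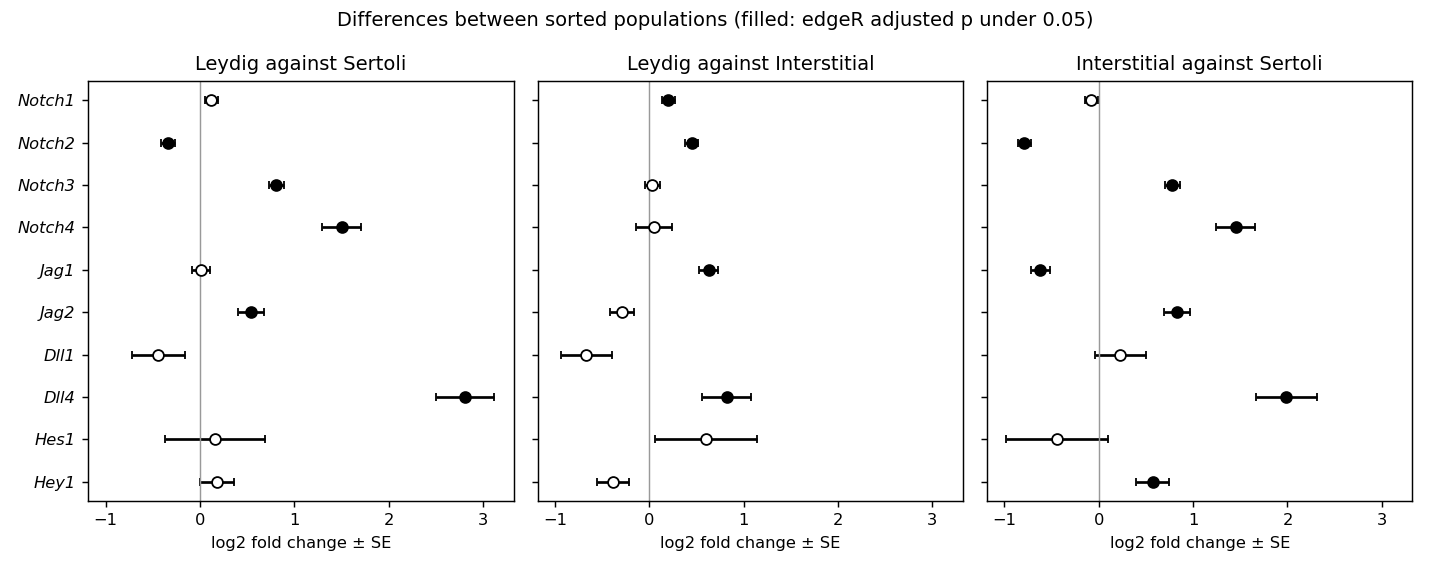
Log2 fold change with its SE for each of the 10 genes in the 3 comparisons, filled where edgeR's adjusted p was under 0.05, with the population named first in the numerator. Dll4 lies farthest right against Sertoli (2.81 in Leydig and 1.99 in Interstitial), and Hes1 has the widest bars (SE 0.53 to 0.54).

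Both target genes differed between the replicate letters. Neither was called between Leydig and another population in the fit of the 6 libraries by population alone. Hes1 (ENSMUSG00000022528, chromosome 16, 30064384 to 30067796, forward strand) encodes a repressor with a short-lived transcript. It stood at 50.6, 146 and 87.2 CPM in Sertoli A, B and C, 64.6, 155 and 92.1 CPM in Leydig, and 47.2, 98.1 and 66.1 CPM in Interstitial. Replicate B was the highest and A the lowest library in each population, with C between them, and the populations overlapped throughout. The log2 difference was 0.16 ± 0.53 for Leydig against Sertoli (SE; edgeR adjusted p 0.84), 0.60 ± 0.54 for Leydig against Interstitial (edgeR adjusted p 0.397) and -0.44 ± 0.54 for Interstitial against Sertoli (edgeR adjusted p 0.507). With no low-count filter it was called in Leydig against Interstitial (0.60, edgeR adjusted p 0.0152), and without Leydig B the direction there turned (-0.17, 0.812).

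Hey1 (ENSMUSG00000040289, chromosome 3, 8663359 to 8667256, reverse strand), a target gene also known from endothelial cells, was at 19.1, 26.3 and 22.2 CPM in Sertoli A, B and C, 23.4, 28.1 and 26.9 CPM in Leydig, and 29.4, 38.0 and 32.7 CPM in Interstitial. Every Interstitial library lay above every library of the other populations, which overlapped each other. Hey1 was 1.48-fold higher in Interstitial than in Sertoli (log2 difference 0.57 ± 0.17 SE; edgeR adjusted p 0.0192), a call that ended without Sertoli A (0.35, edgeR adjusted p 0.149) or Interstitial B (0.44, edgeR adjusted p 0.0886). It was not called in Leydig against Interstitial (-0.39 ± 0.17; edgeR adjusted p 0.102) or Leydig against Sertoli (0.18 ± 0.18; edgeR adjusted p 0.46). In Leydig against Interstitial it was called when genes of low counts were kept (-0.39, edgeR adjusted p 0.00375), with all 9 libraries (-0.36, 0.0134), without Leydig B (-0.54, 0.0437) and, at the threshold, without Interstitial A (-0.57, 0.05). The endothelial marker sum was 4.56-fold higher in Interstitial than in Sertoli, and its part in the Hey1 result was not tested.

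The spread of Hes1 led to a comparison of replicate B with replicate A over the 3 populations, chosen after its counts had been seen. Hes1 was 2.88-fold higher in B than in A in Sertoli, 2.4-fold in Leydig and 2.08-fold in Interstitial. In a fit with population and letter as terms, its log2 difference of B from A was 1.28 ± 0.08 (SE; edgeR adjusted p 0.000205), the gene with rank 3 by p among the 18048. Hey1 was higher in B as well (1.38-fold in Sertoli, 1.2-fold in Leydig and 1.29-fold in Interstitial), by 0.37 ± 0.06 (edgeR adjusted p 0.036). Its call ended without the Sertoli libraries (0.32, edgeR adjusted p 0.143) or the Interstitial libraries (0.35, edgeR adjusted p 0.313), while the value of Hes1 was between 1.16 and 1.38 over the alternatives, with edgeR, DESeq2 or other scaling, and passed the test in each.

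These 2 members were the ones called between letters, both higher in B, against 0.903% of all genes tested (0.587% higher in B and 0.316% higher in A), and none of the 8 receptors and ligands was. Among the receptors and ligands the largest difference was that of Dll1 (0.49 ± 0.15; edgeR adjusted p 0.184). The order B above C above A held in all 3 populations for 2 of 10 members, Hes1 and Hey1, and for 2.65% of all genes. B above A held in all 3 populations for 3 of 10 members, beside 19.3% of all genes. Of the other Notch pathway genes, 1 of 59 was called between letters, the corepressor gene Spen (0.26 ± 0.05; edgeR adjusted p 0.0434). The targets Hes5 (-0.02 ± 0.14) and Heyl (-0.04 ± 0.09) had values near 0.

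Several other measures moved with the letter. The summed level of 11 erythroid markers in A and B was 147 and 420 CPM in Sertoli, 143 and 509 CPM in Leydig, and 11900 and 12500 CPM in Interstitial. Summed over 10 macrophage markers it was 1.65 and 2.23 CPM, 14.3 and 24.6 CPM, and 53.6 and 83.0 CPM. The 6 fetal Leydig markers went the other way in each population, at 309 and 257 CPM in Sertoli, 446 and 236 CPM in Leydig, and 65.0 and 41.7 CPM in Interstitial. The 10 germ cell markers were at 120 and 84.1 CPM, 89.6 and 274 CPM, and 902 and 1030 CPM in A and B. Reads that the counting assigned to no annotated feature were 32.85 and 36.0% of the total in Sertoli A and B. They were 32.32 and 38.52% in Leydig A and B, but 33.87 and 32.53% in Interstitial. The part of these in the Hes1 and Hey1 results was not tested, and nothing in the labels says that a letter marks shared sorting days across populations.

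**Figure D4:**
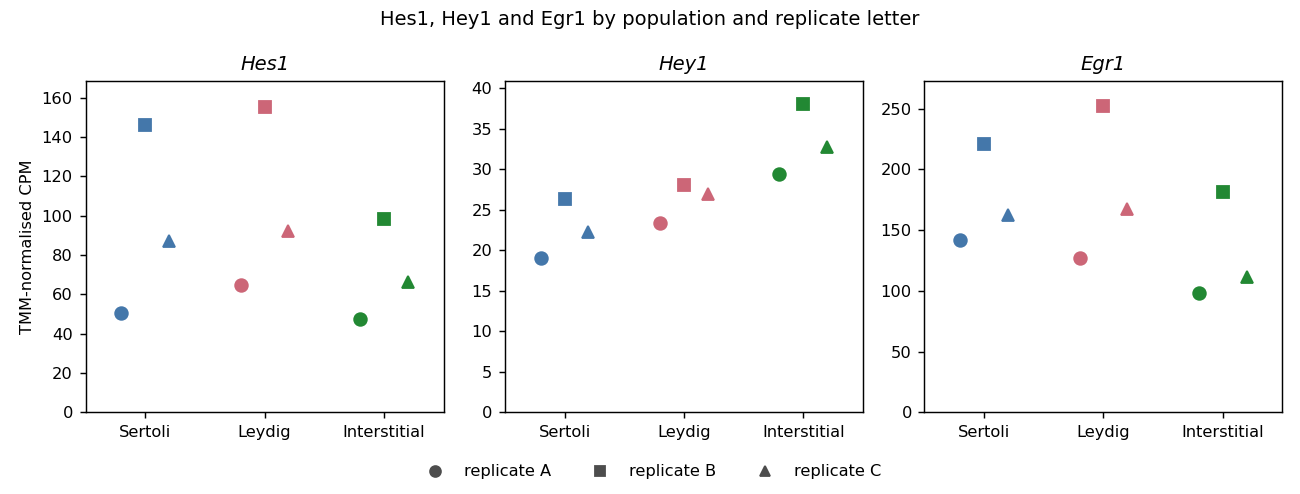
Level of Hes1, Hey1 and Egr1 in TMM-normalised CPM for each population, with circles for replicate A, squares for B and triangles for C. In each panel and population B is highest and A lowest, and Hes1 in Sertoli runs from 50.6 CPM in A to 146 CPM in B. Egr1 was chosen by its likeness to Hes1 over these libraries.

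For each member, the 3 genes with the most similar profile were sought over the 9 libraries, among 14397 genes with a mean of at least 1 CPM, by the root mean square difference of centred log2 CPM. The measure is a description, since the libraries share pools and populations. Those most like Hes1 were Egr2 (0.22), Egr1 (0.243) and Junb (0.254), 3 immediate early genes, which are transcribed quickly after many stimuli. Egr1 was at 142, 221 and 162 CPM in Sertoli A, B and C, 127, 252 and 167 CPM in Leydig, and 98.4, 181 and 111 CPM in Interstitial. The 3 were higher in B than in A by 1.36, 0.84 and 0.81 on the log2 scale. Their choice by likeness to Hes1 over the same libraries favours such a difference, so it is no separate result. Those most like Hey1 were Siah2 (0.057), Spred2 (0.075) and Pim3 (0.084).

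The genes most like Dll4 were Pcdh12 (0.162), Erg (0.169) and Esam (0.174), which are known from endothelial cells, Erg and Esam being among the endothelial markers above. Erg, an ETS factor of the endothelium, was at 1.07, 1.08 and 0.995 CPM in Sertoli A, B and C, 8.02, 9.75 and 8.71 CPM in Leydig, and 5.47, 4.6 and 5.07 CPM in Interstitial. Like Dll4, it was lowest in Sertoli and highest in Leydig with no overlap, which its choice by likeness to Dll4 over these libraries favours. Those most like Notch4 were Tvp23a (0.112), Csrp1 (0.123) and Ptgis (0.132). Notch1 was closest to Sh3gl1 (0.043), Notch2 to Eme2 (0.039), Notch3 to Homer3 (0.061), Jag1 to Vcl (0.056), Jag2 to Rgma (0.085) and Dll1 to Cdkn2aip (0.107).

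A wider list of 62 other pathway genes was read beside the members, of which 59 passed the filter on low counts (Ccn3, Hes2 and Hes3 did not). Of 10 genes of receptor cleavage, 7 were lower in Leydig than in Sertoli, 9 were lower in Interstitial than in Sertoli and 6 were higher in Leydig than in Interstitial, and none was called in the opposite direction by edgeR, DESeq2 or limma, nor at an unadjusted p under 0.05. In those directions 20.6%, 29.1% and 22.0% of all genes were called. The median log2 difference of the cleavage genes was -0.54, -0.88 and 0.39, beside -0.01, 0.04 and 0.01 over all genes. Over all 62, the calls were 10 higher and 16 lower in Leydig against Sertoli (44.1% of those tested), 20 and 11 in Leydig against Interstitial (52.5%), and 15 and 28 in Interstitial against Sertoli (72.9%). Of all genes 37.5%, 45.1% and 61.8% were called, which is near those shares.

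Aph1b, which encodes a gamma-secretase subunit, differed most among the cleavage genes. It was at 87.5, 88.7 and 89.6 CPM in Sertoli A, B and C, 33.6, 38.7 and 35.2 CPM in Leydig, and 12.3, 14.2 and 13.8 CPM in Interstitial. The populations were far apart, at -1.28 ± 0.09 for Leydig against Sertoli (log2 difference ± SE; edgeR adjusted p 1.39e-05) and -2.73 ± 0.10 for Interstitial against Sertoli (edgeR adjusted p 9.33e-08). Ncstn, which encodes the nicastrin subunit (-0.65 ± 0.06 and -1.25 ± 0.06), and Adam10, which encodes the metalloprotease of the first cut (-0.66 ± 0.10 and -1.57 ± 0.10), were lower in the same comparisons, with edgeR adjusted p of 3.96e-05 and 3.42e-07 for Ncstn and 0.00101 and 3.22e-06 for Adam10. The summed Sertoli markers had the same order of populations, and their part in this pattern was not tested. These enzymes also cut many proteins other than Notch.

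Hes5 was the target gene with the widest difference among populations. Its level was 7.53, 7.62 and 7.6 CPM in Sertoli A, B and C, 2.46, 2.3 and 2.84 CPM in Leydig, and 0.904, 0.921 and 0.787 CPM in Interstitial. Replicates lay close together and populations did not overlap, at -1.67 ± 0.16 for Leydig against Sertoli (log2 difference ± SE; edgeR adjusted p 7.11e-05), -3.05 ± 0.18 for Interstitial against Sertoli (edgeR adjusted p 1.53e-06) and 1.38 ± 0.19 for Leydig against Interstitial (edgeR adjusted p 0.000665). Heyl was at 47.3, 56.9 and 43.8 CPM in Sertoli, 60.4, 50.7 and 55.2 CPM in Leydig, and 23.0, 20.9 and 19.5 CPM in Interstitial. It was lower in Interstitial than in Sertoli (-1.24 ± 0.12; edgeR adjusted p 2.91e-05), the opposite direction to Hey1 in that comparison. Of the 5 targets tested besides the members, 3 were lower and 1 higher in Interstitial than in Sertoli, beside 29.1% and 32.7% of all genes. The 1 higher was Hes6 (0.27 ± 0.10, edgeR adjusted p 0.0444).

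Among the sugar-adding enzymes that tune which ligand a receptor answers to, Mfng, which encodes Manic fringe, stood out. It was at 0.577, 0.482 and 0.664 CPM in Sertoli A, B and C (20, 16 and 24 reads), 5.02, 4.75 and 5.17 CPM in Leydig, and 4.08, 3.17 and 3.05 CPM in Interstitial. Sertoli lay far below the others, with a log2 difference of 3.19 ± 0.24 in Leydig (SE; edgeR adjusted p 1.71e-05) and 2.77 ± 0.24 in Interstitial (edgeR adjusted p 1.83e-05). Per 1000 CPM of endothelial markers, Mfng was at 6.34 to 8.68 CPM in Sertoli, 12.1 to 14.5 CPM in Leydig and 8.5 to 10.4 CPM in Interstitial. These values too depend on which markers are summed, and the part of endothelial cells in the Mfng result was not tested. Gxylt2, which encodes a xylosyltransferase, was lower in Leydig than in Sertoli (-0.76 ± 0.14; edgeR adjusted p 0.00338). Of the 8 enzyme genes, 4 were higher and 1 lower in Leydig than in Sertoli (16.9% and 20.6% of all genes), 2 higher in Leydig than in Interstitial (22.0%), and 3 higher and 3 lower in Interstitial than in Sertoli (32.7% and 29.1%). None of the 8 was lower in Leydig than in Interstitial (23.2% of all genes) by edgeR, DESeq2 or limma, with 0 at an unadjusted p under 0.05.

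Of the ligand-like genes, Dlk1, which encodes a membrane protein without the usual receptor-binding domain, was at 26.9, 27.0 and 25.0 CPM in Sertoli A, B and C, 96.2, 78.8 and 99.9 CPM in Leydig, and 170, 144 and 144 CPM in Interstitial. It was higher in Leydig (1.70 ± 0.11 SE; edgeR adjusted p 8.63e-06) and in Interstitial (2.55 ± 0.11; edgeR adjusted p 2.88e-07) than in Sertoli. Dll3, a ligand known to act inside the cell, was at 3.22, 3.89 and 2.93 CPM in Interstitial and at 0.568 to 1.27 CPM in the other libraries, a log2 difference of 2.05 ± 0.35 from Sertoli (edgeR adjusted p 0.000898). Germ cell markers summed to 902 to 1030 CPM in Interstitial against 84.1 to 120 CPM in Sertoli and 89.6 to 274 CPM in Leydig, and their part in the Dll3 result was not tested.

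Rbpj, which encodes the DNA-binding partner of all 4 receptors, was called in no comparison (0.06 ± 0.08, -0.10 ± 0.08 and 0.16 ± 0.08 for Leydig against Sertoli, Leydig against Interstitial and Interstitial against Sertoli). Of the 17 genes of the nuclear complex and its corepressors, 2 were called in Leydig against Sertoli (11.8%, beside 37.5% of all genes), each lower in Leydig. In each other comparison 8 were called (47.1%, beside 45.1% and 61.8% of all genes), with 3 higher and 5 lower in Leydig than in Interstitial, and 4 higher and 4 lower in Interstitial than in Sertoli. Among the 11 inhibitors and turnover genes, Dtx4 (-1.58 ± 0.09) and Dtx1 (-1.34 ± 0.18) were lower in Interstitial than in Sertoli. Dtx3l (0.65 ± 0.17) and Numbl (0.84 ± 0.10) were higher there. Dtx3l was low, with means of 6.0 CPM in Interstitial and 3.84 CPM in Sertoli, and its call ended without Sertoli A (0.55). In all, 4 of the 11 were higher and 6 lower there, beside 32.7% and 29.1% of all genes. Dtx genes encode Deltex ubiquitin ligases, and Numbl a Numb-like protein that holds back receptors. Numb itself went the other way, lower in Interstitial than in Sertoli (-0.89 ± 0.07, edgeR adjusted p 9.61e-06). Of 4 genes of ligand uptake, Neurl1a, which encodes a ubiquitin ligase of ligands, was higher in Leydig (0.69 ± 0.12) and in Interstitial (1.03 ± 0.12) than in Sertoli.

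**Figure D5:**
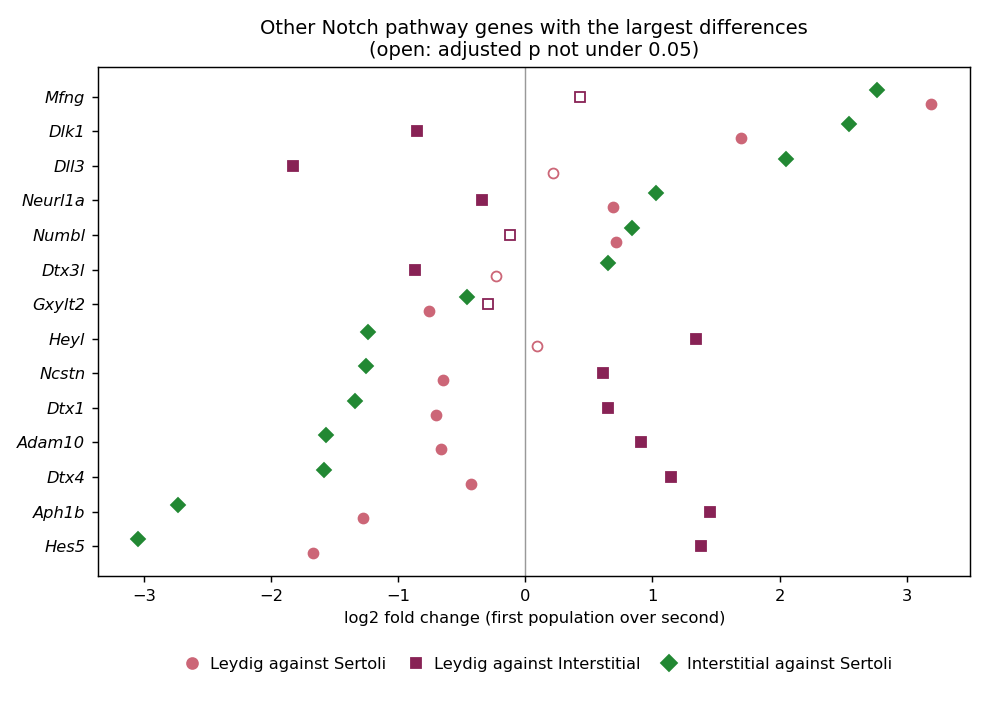
Log2 fold change of 14 other Notch pathway genes in Leydig against Sertoli (circles), Leydig against Interstitial (squares) and Interstitial against Sertoli (diamonds), filled where edgeR's adjusted p was under 0.05. Mfng lies farthest right (3.19 in Leydig against Sertoli), and Hes5 farthest left (-3.05 in Interstitial against Sertoli).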

How the data were processed

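RNA was measured in 9 libraries, 3 per sorted population, each run over 4 lanes. The authors aligned the reads with TopHat2 2.0.6 to mm10 and counted them with HTSeq, per the submitters' processing notes. For the annotation release and the strand setting: not given in the sources used here. The deposited count table holds raw read counts per gene and lane, without normalisation, and 5 summary lines, which were left out. Reads that HTSeq assigned to no annotated feature made up 32.23 to 38.52%, and reads in introns and between genes are not told apart there. Tables of limma output deposited by the authors hold log2 fold changes, average log2 expression, t and B scores, and p-values, per the file headers; only log2 fold changes were copied from them.

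Lanes were summed. Replicates A and B of all populations were fitted together with edgeR 4.0.16 (quasi-likelihood test, TMM, filterByExpr, R 4.3.3), which left 18048 genes and 3 residual degrees of freedom, and Benjamini-Hochberg adjustment ran over all of them for every comparison. The common biological coefficient of variation was 0.0871. CPM of replicate C was scaled to the same reference library. RPKM is that CPM per kb of merged exons in GENCODE M21. SE is the log2 fold change divided by the square root of its F value. Simulated counts with known fold changes served to test the script. Alternatives were RLE factors, library size alone, other filters, DESeq2 1.42.0, limma 3.58.1 (voom), all 9 libraries, the replicate letter as a block, and each library left out. The members and gene lists were chosen with earlier results of these data known. All 10 members are named, and of the other pathway genes up to 10 per comparison, those called with the largest log2 difference and at least 1 CPM in the higher population. Rbpj, Hes6, Spen, Numb, Pecam1, Cdh5 and the B against A values were added after their values had been seen.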

Additional observations from a re-analysis of the deposited data

How the results depend on the processing

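Over the alternatives run, every called value of a member kept its direction. A member's call ended in 2, 10 and 2 cases and was gained in 3, 12 and 2 cases in Leydig against Sertoli, Leydig against Interstitial and Interstitial against Sertoli. The calls that ended without a single library are given with the results above, and with no low-count filter Notch1 in Leydig against Interstitial was at an edgeR adjusted p of 0.078 and with library size alone at 0.13 (0.181). The number of members called between Leydig and Interstitial was 4 (none lower in Leydig). It was 6 (4 higher and 2 lower) with no low-count filter and with all 9 libraries, 5 (3 and 2) without Interstitial replicate A, 4 (2 and 2) without Leydig replicate B, and 2 without Interstitial replicate B, where the other pathway genes called were 19 in place of 31 (up to 30 when another library was left out). Leaving out single libraries turned uncalled values in Leydig against Sertoli for Jag1 (-0.11 to 0.17), Hes1 (-0.56 to 1.12), Hey1 (-0.031 to 0.43), Dll3 (-0.2 to 0.8) and Heyl (-0.041 to 0.26); in Leydig against Interstitial for Notch3 (-0.1 to 0.13), Notch4 (-0.18 to 0.29) and Hes1 (-0.17 to 1.2); and in Interstitial against Sertoli for Dll1 (-0.17 to 0.64) and Hes1 (-1.01 to 0.51).

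Library size alone turned Notch3 (-0.038) and Notch4 (-0.016) in Leydig against Interstitial and Notch1 (0.09) in Interstitial against Sertoli, all uncalled, and all 9 libraries put Notch4 in Leydig against Interstitial at -0.0024. That scaling moved the median of all genes by 0.102 in Leydig against Sertoli and 0.167 in Interstitial against Sertoli, and the share of calls higher in the population named first from 45.1 to 58.8% and from 52.9 to 65.2% (48.7 to 40.2% in Leydig against Interstitial). For the other pathway genes, the calls higher and lower became 14 and 11, 15 and 12, and 21 and 19 in the 3 comparisons.

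The replicate letters do not pair the libraries by the labels, and the differences of B from A correlated across 18048 genes at 0.017 (Sertoli and Leydig), 0.099 (Sertoli and Interstitial) and 0.248 (Leydig and Interstitial). With the letter as a replicate block, 5, 7 and 8 members were called in Leydig against Sertoli, Leydig against Interstitial and Interstitial against Sertoli. Hes1 (0.56, edgeR adjusted p 0.00093), Hey1 (-0.38, 0.00262) and Dll1 (-0.65, 0.0135) were then called in Leydig against Interstitial, and Hes1 (-0.35, 0.00838) in Interstitial against Sertoli. Hes1, Hey1 and Dll1 are the members that differed most between letters. Other pathway genes called were 31, 35 and 49.

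In B against A, 1 member was called in place of 2 without the Sertoli libraries and 1 without the Interstitial libraries. Uncalled values turned for Notch1 without the Sertoli libraries (-0.037), for Notch2 (0.039), Jag1 (0.08) and Dll4 (-0.4) without the Leydig libraries, and for Notch4 without the Interstitial libraries (0.09). The cause of these changes was not tested. With 2 pools per population, and Dll4, Notch4, Dll1 and Jag2 at under 10 CPM, differences of the size of their errors were not detectable.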
